A study of Homo sapiens with 14 samples.

Results

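The 38 genes described here encode parts of the lysosome and of autophagy, and were chosen by symbol from the 61541 genes of a count table of human Jurkat cells. All 38 symbols matched a row of the table. They comprise 4 proteins of the lysosomal membrane, 15 hydrolases and their activators, 2 cholesterol exporters, 7 components of the proton pump, 6 autophagy genes and 4 regulators. Of these, 36 were among the 18963 genes that passed the filter on low counts. *CTSL*, which encodes cathepsin L, had 0 counts in each of the 14 libraries, and *CTSZ*, which encodes cathepsin Z, had at most 5 counts in a library, so neither was tested.

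Lysosomes are acidic organelles in which hydrolases degrade proteins, lipids and glycans. A proton-pumping ATPase keeps the lumen acidic, and macroautophagy delivers cytoplasmic cargo to it in autophagosomes. The related transcription factors TFEB and TFE3 activate many lysosomal genes through the CLEAR element, an extended form of the palindrome CACGTG. When nutrients are plentiful the kinase mTORC1, docked on the lysosome by the Rag GTPases, holds both factors in the cytoplasm.

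Jurkat is an established T cell leukaemia line, and polyadenylated RNA was sequenced from 5 groups. Cells treated with KSRi (APS-2-79), a ligand of the kinase suppressor of Ras (KSR) scaffold proteins, formed a group of 3 libraries, and cells given DMSO formed another group of 3. Cells carrying *KSR2* guide 1 and cells carrying *KSR2* guide 2 gave 3 libraries each, against 2 libraries of cells with a non-targeting guide, called NT. The labels disagree on the method: the sample titles call the guides CRISPR knockout, the design text says CRISPRi, and the NT libraries are named as an shRNA control. The RNA of every group is described as coming from transduced Jurkat cells, and what the KSRi and DMSO cells carried was not given in the sources used here. Dose, treatment time, guide sequences and whether the guide cells were clones or pools were likewise not given in the sources used here. Since no label names the replicates as separate cultures, the p-values describe spread between these samples only, and that spread may be technical.

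Library totals lay between 21710466 and 45897075 counts with KSRi and between 27099107 and 43027877 with DMSO. They lay between 25794010 and 42717502 in the guide and NT libraries. *KSR2* transcript averaged 0.541 ± 0.110 CPM (counts scaled to a common library size) in guide 1 cells and 0.766 ± 0.0492 CPM in guide 2 cells (SD, n = 3 each), against 29.5 ± 0.786 CPM in NT cells (SD, n = 2). It averaged 34.3 ± 1.2 CPM with KSRi and 37.0 ± 2.23 CPM with DMSO (SD, n = 3 each). All 10 T lineage markers were above 1 CPM in every group, and their summed level ran from 2582 to 2997 CPM with KSRi and from 2316 to 2429 CPM with DMSO. None of the 8 monocyte or macrophage markers reached 1 CPM in any group, and *CSF1R* was at 0 throughout. Their sum was 0.807 to 1.11 CPM with KSRi and 0.860 to 1.24 CPM with DMSO. Of 4 fibroblast markers, *COL1A1* alone was above 1 CPM, and the sum of the 4 was 9.06 to 13.9 CPM with KSRi and 6.12 to 6.70 CPM with DMSO. Its part in the results was not tested.

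The sequences upstream of 6 of these genes are shown as examples of the CACGTG palindrome, in capitals, that forms the core of the CLEAR element. The palindrome also lies upstream of *CTSA*, *CTSD* and *CD63*, which are not printed. The printed stretches are RefSeq sequences of build GRCh38.p14, written 5′ to 3′ on the gene's own strand. The stretches lie, with the strand in brackets, for *LAMP1* at chr13:113297028-113297103 (plus), *MCOLN1* at chr19:7522548-7522623 (plus), *ATP6V0B* at chr1:43974868-43974943 (plus), *ATP6V0D1* at chr16:67481176-67481251 (minus), *NEU1* at chr6:31862907-31862982 (minus) and *GAA* at chr17:80101470-80101545 (plus).
LAMP1: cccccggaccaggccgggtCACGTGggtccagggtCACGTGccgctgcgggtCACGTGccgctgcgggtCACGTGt
MCOLN1: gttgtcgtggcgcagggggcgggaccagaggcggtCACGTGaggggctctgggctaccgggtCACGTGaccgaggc
ATP6V0B: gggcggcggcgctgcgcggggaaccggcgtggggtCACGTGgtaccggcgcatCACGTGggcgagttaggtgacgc
ATP6V0D1: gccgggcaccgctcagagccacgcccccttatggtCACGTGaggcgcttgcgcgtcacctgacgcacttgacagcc
NEU1: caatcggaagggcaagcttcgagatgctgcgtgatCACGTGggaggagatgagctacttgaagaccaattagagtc
GAA: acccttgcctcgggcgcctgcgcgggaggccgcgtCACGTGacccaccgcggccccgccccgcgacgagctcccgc
The *LAMP1* stretch holds 4 of the 6 copies in its promoter, spaced closely together. The *MCOLN1* and *ATP6V0B* stretches hold 2 copies each, and the other 3 stretches hold 1 each.

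A promoter window, from 250 bases before to 50 bases after the transcript start, was at hand for 29 of the 38 genes. CACGTG, which reads the same on both strands, occurred in 9 of these 29 windows (31.0%). The same letters occurred in 7.26% of all 35116 promoter windows and in 9.87% of the 11755 windows of genes that were tested. TCACGTG on either strand, a longer form that contains CACGTG and so is not counted independently of it, occurred in 8 of the 29 windows (27.6%), against 3.71% of all windows and 5.69% of those of tested genes. The related E-box CATGTG on either strand occurred in 3 of the 29 (10.3%), against 11.1% of all windows and 7.27% of those of tested genes. The 9 genes with the palindrome were *LAMP1*, *CD63*, *MCOLN1*, *CTSA*, *CTSD*, *GAA*, *NEU1*, *ATP6V0D1* and *ATP6V0B*. For *GAA*, *ATP6V0C*, *LIPA* and *ULK1*, the bases after the start used here were not found in a GENCODE 29 transcript of the gene. Those starts may therefore differ from the annotated ones. *GAA* has the palindrome in its window, and the windows of *ATP6V0C*, *LIPA* and *ULK1* lack it. A match is a run of letters and is not evidence that a factor binds there.

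Per kilobase of exon, the most abundant transcript of the 36 in DMSO cells was *PSAP*, which encodes the precursor of the saposins that help glycosidases reach their lipid substrates. It stood at 352 CPM per kb with KSRi and 263 CPM per kb with DMSO. Most of the others lay far below that, as *LAMP2* did at 35.8 CPM per kb with KSRi and 27.0 CPM per kb with DMSO. The scarcest well-measured genes in DMSO cells were *WIPI1* and *SMPD1*, at 0.507 and 0.543 CPM per kb, and *TFEB*, at 0.963 CPM per kb. *ATP6V0C*, which encodes the ring subunit of the pump, was listed at only 0.235 CPM per kb in DMSO cells. It shares 862 exonic bases on the same strand with AC093525.2, which had 0 counts, and how reads in shared bases were counted was not given in the sources used here, which leaves its level uncertain.

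The first comparison asks what APS-2-79 did to these transcripts. With KSRi, 19 of the 36 genes rose, 0 fell and 17 did not pass the test (edgeR's quasi-likelihood test, Benjamini-Hochberg adjusted p under 0.05 over all genes tested). Over all 18963 genes tested, 22% rose and 18.7% fell. The median log2 change of the 36 genes was 0.28, against 0.02 for all genes tested, and 35 of the 36 values were positive. In 19 of the 36 genes each KSRi library lay above each DMSO library, and in 0 each lay below, against 25% and 21.9% of all genes. The summed level of the genes was 3723 ± 510 CPM with KSRi and 2726 ± 149 CPM with DMSO (SD, n = 3 each). In bulk RNA such a difference in share of transcripts cannot be told apart from a change in the makeup of the cells or in RNA per cell.

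**Figure D1:**
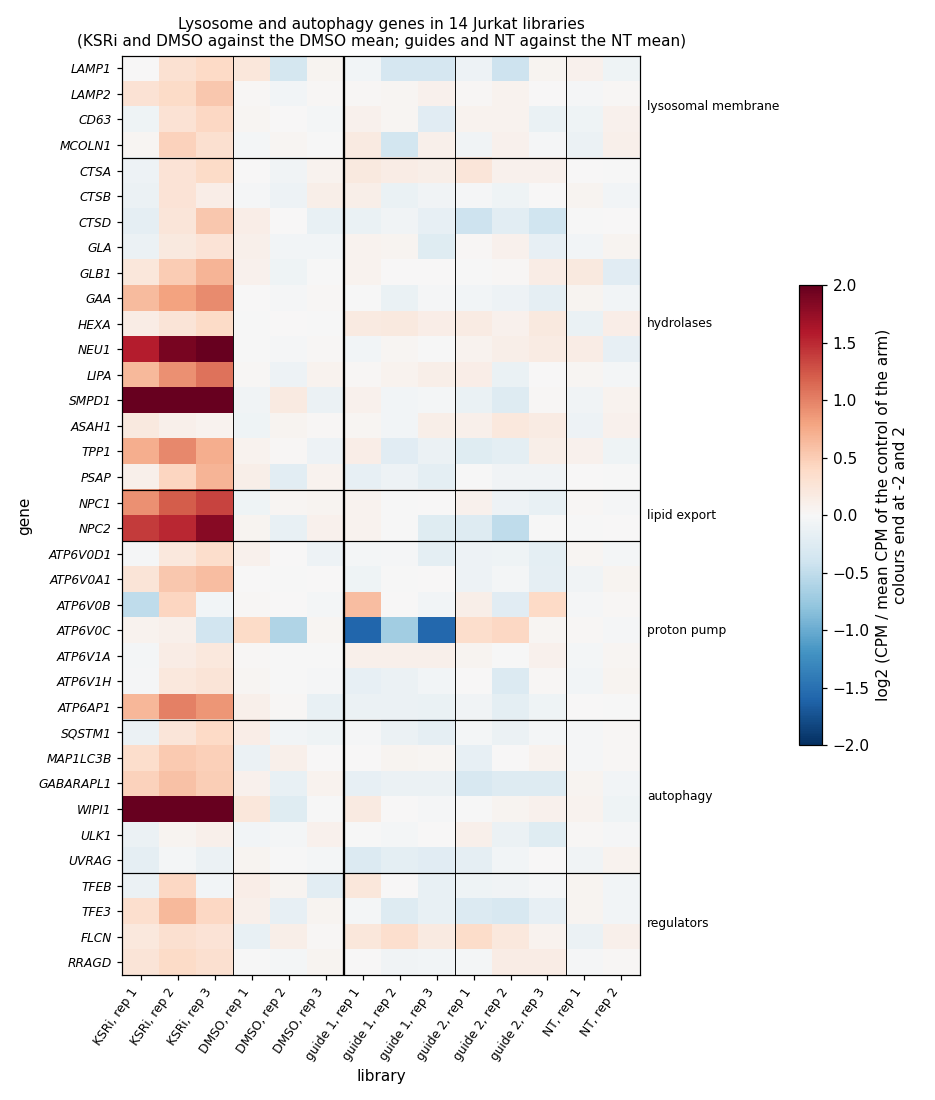
Each row is 1 of the 36 tested genes and each column 1 of the 14 libraries, with KSRi left of DMSO and the guides left of NT. Colour gives log2 of CPM over the mean CPM of DMSO (KSRi and DMSO columns) or of NT (guide and NT columns), and ends at −2 and 2. *WIPI1*, *SMPD1* and *NEU1* are darkest red in the 3 KSRi libraries, and the first KSRi library is paler than the other 2 in most rows.

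The KSRi libraries were less alike than the DMSO libraries. The first KSRi replicate was the lowest of the 3 in 33 of the 36 genes (91.7%), against 46.4% of all genes tested. Mitochondrial transcripts took 2.51%, 2.06% and 1.12% of counts in KSRi replicates 1 to 3, and 1.45%, 1.36% and 1.27% in the DMSO replicates. Without KSRi replicate 1, 29 of the 36 genes rose, against 25.9% of all genes, and the median log2 change was 0.37. Those 29 were the 19 genes and another 10, namely *LAMP1*, *CD63*, *MCOLN1*, *CTSA*, *CTSB*, *CTSD*, *ATP6V0D1*, *ATP6V1A*, *ATP6V1H* and *SQSTM1*. Leaving out any other KSRi or DMSO library gave 17 to 19 genes, and the genes lost were *FLCN* and *HEXA*.

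Both cholesterol exporters rose. NPC2 picks up cholesterol in the lysosomal lumen and hands it to NPC1, the membrane protein that exports it. *NPC1* (ENSG00000141458, GRCh38 chr18:23506184-23586898, minus strand) had 147, 182 and 200 CPM in the KSRi libraries, against 73.8, 80.3 and 80.9 CPM in the DMSO libraries. Every KSRi library lay well above every DMSO library. The log2 change was 1.17 ± 0.09 (SE), a 2.25-fold rise, with an edgeR adjusted p of 8.27e-08. *NPC2* (ENSG00000119655, chr14:74476192-74494177, minus strand) had 46.3, 49.8 and 62.0 CPM with KSRi, against 18.2, 15.8 and 18.6 CPM with DMSO. The groups again did not overlap, and the rise was 3.00-fold (log2 change 1.59 ± 0.13, edgeR adjusted p = 9.65e-08). *NPC1* shares 604 exonic bases with *RMC1* on the opposite strand, and *RMC1* had a log2 change of 0.01. *NPC2* shares 103 with *ISCA2*, whose log2 change was 0.38. Whether counting used strand was not given in the sources used here.

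Of the 13 tested hydrolases and activators, 8 rose (61.5%, against 22% of all genes tested) and 5 did not pass the test. Their median log2 change was 0.42. *SMPD1* (ENSG00000166311, chr11:6390431-6394998, plus strand), which encodes the acid sphingomyelinase that splits sphingomyelin into ceramide and phosphocholine, had 6.68, 9.23 and 11.9 CPM with KSRi. The DMSO libraries had 1.42, 1.69 and 1.37 CPM, from 34 to 53 counts each. The lowest KSRi value was several times the highest DMSO value. The rise was 6.10-fold (log2 change 2.61 ± 0.19, edgeR adjusted p = 2.12e-08). *NEU1* (ENSG00000204386, chr6:31857659-31862906, minus strand), which encodes the sialidase of the lysosome, had 104, 129 and 154 CPM with KSRi, against 34.8, 34.4 and 35.4 CPM with DMSO. The DMSO libraries were nearly equal and the KSRi libraries spread widely above them. The rise was 3.70-fold (log2 change 1.89 ± 0.11, edgeR adjusted p = 1.88e-09).

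*LIPA*, which encodes the acid lipase that frees cholesterol from its esters, had 145, 175 and 196 CPM with KSRi, against 94.2, 86.6 and 97.5 CPM with DMSO. This was a 1.85-fold rise with no overlap (edgeR adjusted p = 1.80e-06). *GAA*, the α-glucosidase that breaks down glycogen, had 67.7, 76.7 and 84.4 CPM with KSRi and 44.1, 42.9 and 44.3 CPM with DMSO. It rose 1.74-fold, and its DMSO values were close together. *TPP1*, a tripeptidyl peptidase, had 70.1, 82.7 and 70.0 CPM with KSRi and 44.6, 43.0 and 39.7 CPM with DMSO, a 1.75-fold rise without overlap. The β-galactosidase gene *GLB1* rose 1.40-fold and *HEXA*, a subunit of β-hexosaminidase, rose 1.20-fold. *PSAP* rose 1.34-fold by the test (edgeR adjusted p = 0.00730), although its libraries overlapped. It had 911, 1147 and 1367 CPM with KSRi and 926, 737 and 897 CPM with DMSO, so the first KSRi library lay below the first DMSO library.

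The 5 hydrolases that did not pass the test were *CTSA*, *CTSB*, *CTSD*, *GLA* and *ASAH1*. Their log2 changes ran from 0.11 for the cysteine protease *CTSB* (95% interval −0.10 to 0.31) to 0.22 for the aspartic protease *CTSD* (95% interval −0.05 to 0.49). *ASAH1*, the acid ceramidase, had 65.4, 61.2 and 59.7 CPM with KSRi and 53.9, 59.1 and 58.2 CPM with DMSO. Its groups did not overlap, but the log2 change of 0.12 missed the threshold (edgeR adjusted p = 0.194). *CTSA*, which encodes the protective protein that holds NEU1 and GLB1 in a complex, had 49.4, 64.4 and 68.8 CPM with KSRi, against 53.2, 50.4 and 55.5 CPM with DMSO. The first KSRi library again fell below the DMSO libraries, and the log2 change was 0.20 (95% interval −0.01 to 0.40).

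**Figure D2:**
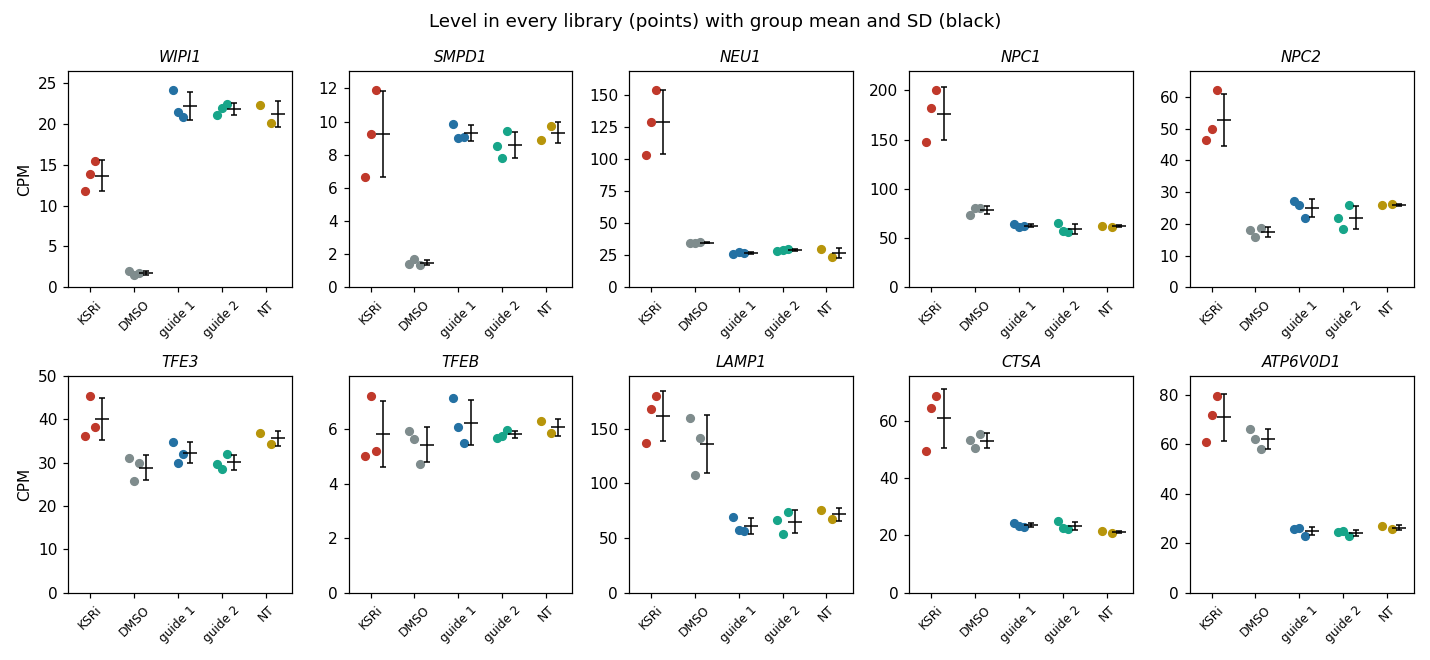
CPM of 10 of the genes in each library (points) with the group mean and SD (bar and whiskers), KSRi left of DMSO and the guides left of NT. *NEU1* and *NPC1* are highest in the KSRi libraries, whereas *WIPI1* is lowest in the DMSO libraries.

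Of the 4 lysosomal membrane genes, *LAMP2* rose (25%, near the 22% of all genes tested) and 3 did not pass the test. *LAMP2*, a heavily glycosylated coat protein needed for chaperone-mediated autophagy and for autophagosome clearance, had 182, 194 and 217 CPM with KSRi, against 152, 144 and 152 CPM with DMSO. This was a 1.32-fold rise with no overlap (edgeR adjusted p = 0.000154). *LAMP1* (ENSG00000185896, chr13:113297241-113323672, plus strand), the other main coat protein, had 136, 168 and 180 CPM with KSRi, against 160, 107 and 142 CPM with DMSO. Its libraries were interleaved, and the log2 change was 0.25 (95% interval −0.05 to 0.55, edgeR adjusted p = 0.178). It passed when no filter on low counts was used, at a log2 change of 0.23 and an edgeR adjusted p of 0.0380. *MCOLN1* (ENSG00000090674, chr19:7522626-7534009, plus strand), the calcium channel whose release of calcium leads to TFEB activation, had 15.4, 20.6 and 18.8 CPM with KSRi, against 14.7, 15.4 and 14.9 CPM with DMSO. The first KSRi library matched the highest DMSO library, and the log2 change of 0.29 did not pass (95% interval 0.02 to 0.56, edgeR adjusted p = 0.0826). The tetraspanin gene *CD63* had a log2 change of 0.22 (95% interval −0.03 to 0.46).

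Of the 7 pump genes, 2 rose (28.6%, near the 22% of all genes tested) and 5 did not pass the test. *ATP6AP1*, an accessory protein needed for assembly of the pump, had 132, 167 and 153 CPM with KSRi, against 89.6, 84.8 and 74.8 CPM with DMSO. It rose 1.82-fold with no overlap (edgeR adjusted p = 6.54e-07). *ATP6V0A1*, a subunit of the membrane sector through which protons pass, had 60.0, 72.9 and 76.6 CPM with KSRi and 50.1, 49.6 and 50.5 CPM with DMSO, a 1.39-fold rise. *ATP6V1A*, the catalytic subunit, had a log2 change of 0.11 (95% interval −0.03 to 0.25). *ATP6V1H*, *ATP6V0D1* and *ATP6V0B* had log2 changes of 0.15, 0.19 and 0.01. *ATP6V0B* was the most variable of these with KSRi, at 65.4, 125 and 88.8 CPM, around DMSO values of 94.2, 93.6 and 90.3 CPM. *ATP6V0C* had 5 to 15 counts per KSRi library and 7 to 14 per DMSO library, and its interval ran from −0.65 to 0.69.

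Of the 6 autophagy genes, 3 rose (50%, against 22% of all genes tested) and 3 did not pass the test. The 3 that rose were also higher in NT cells than in DMSO cells, as given below. *WIPI1* (ENSG00000070540, chr17:68420948-68457513, minus strand), which encodes a phosphoinositide-binding protein of the forming autophagosome, had 11.7, 13.8 and 15.4 CPM with KSRi. The DMSO libraries had 2.01, 1.46 and 1.71 CPM, from 44 to 66 counts each. The groups lay far apart, with a 7.94-fold rise (log2 change 2.99 ± 0.13, edgeR adjusted p = 4.26e-11). *WIPI1* shares 828 exonic bases with *ARSG*, a lysosomal sulfatase gene on the opposite strand. *ARSG* averaged 18.2 CPM with KSRi and 9.0 CPM with DMSO, a log2 change of 1.01 (edgeR adjusted p = 2.08e-07), and AC007780.1, which shares 127 exonic bases on the opposite strand, had a log2 change of 1.1. Without strand information reads in the shared bases cannot be told apart. *GABARAPL1* and *MAP1LC3B* encode ubiquitin-like proteins that are joined to lipid on the autophagosome membrane. *GABARAPL1* had 27.2, 29.7 and 27.9 CPM with KSRi and 20.9, 17.8 and 20.7 CPM with DMSO, a 1.43-fold rise. *MAP1LC3B* rose 1.37-fold, and its groups did not overlap.

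*SQSTM1* (ENSG00000161011, chr5:179806398-179838078, plus strand), whose product p62 carries ubiquitinated cargo to autophagosomes, had 79.3, 102 and 113 CPM with KSRi, against 93.9, 82.9 and 81.4 CPM with DMSO. The groups overlapped and the log2 change was 0.19 (95% interval −0.02 to 0.40, edgeR adjusted p = 0.141). It shares 1582 exonic bases with *MRNIP* on the opposite strand, which had a log2 change of −0.11. *ULK1*, the kinase that starts autophagy, had a log2 change of 0.01 (95% interval −0.16 to 0.19). *UVRAG* (ENSG00000198382, chr11:75815167-76143195, plus strand), a partner of the lipid kinase complex that matures autophagosomes and endosomes, was the single gene with a negative value. It had 54.5, 60.6 and 57.1 CPM with KSRi, against 64.3, 61.3 and 60.2 CPM with DMSO. The groups overlapped slightly, and the log2 change of −0.11 did not pass (95% interval −0.26 to 0.04, edgeR adjusted p = 0.234).

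Of the 4 regulators, 3 rose (75%, against 22% of all genes tested). *TFE3* (ENSG00000068323, chrX:49028726-49043486, minus strand) had 36.3, 45.5 and 38.3 CPM with KSRi, against 31.1, 25.8 and 29.9 CPM with DMSO. Its groups did not overlap, and the log2 change was 0.47 ± 0.10 (edgeR adjusted p = 0.000933). *TFEB* (ENSG00000112561, chr6:41683978-41736259, minus strand) had 5.04, 7.23 and 5.21 CPM with KSRi, against 5.95, 5.66 and 4.71 CPM with DMSO. Its libraries were mixed, the log2 change was 0.14 (95% interval −0.17 to 0.44, edgeR adjusted p = 0.480), and without KSRi replicate 2 it was −0.08. *RRAGD* (ENSG00000025039, chr6:89364636-89412270, minus strand), a Rag GTPase, had 68.9, 75.2 and 72.2 CPM with KSRi, against 57.0, 55.8 and 59.9 CPM with DMSO. It rose 1.25-fold with no overlap (edgeR adjusted p = 0.00123). *FLCN*, whose product activates RagC and RagD, had 28.6, 31.2 and 29.9 CPM with KSRi, against 22.5, 26.8 and 25.2 CPM with DMSO. It rose 1.20-fold with an edgeR adjusted p of 0.0295.

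**Figure D3:**
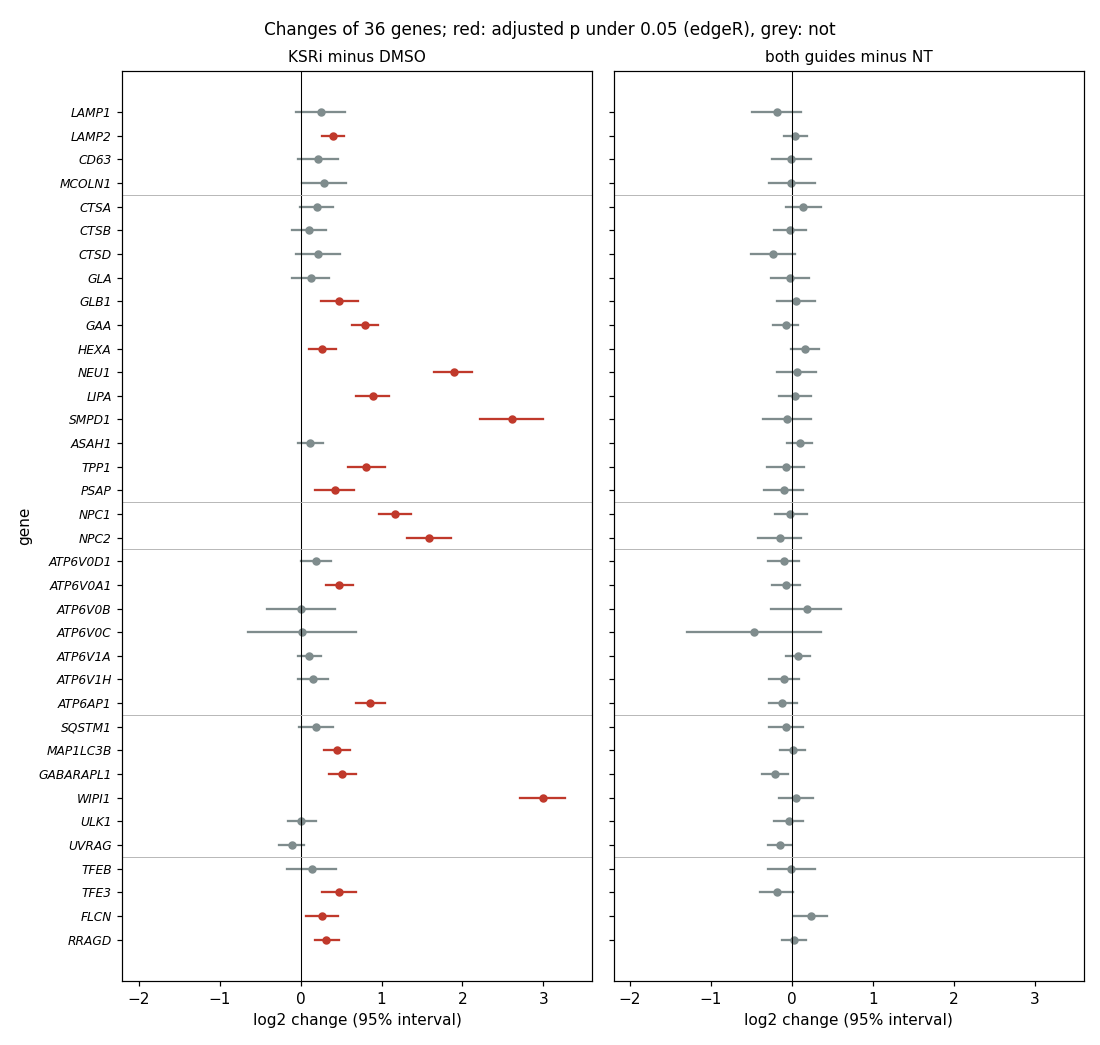
Log2 change of each tested gene (point) with its 95% interval (line) for KSRi against DMSO and for both guides against NT, ordered by role. The KSRi points run from −0.11 for *UVRAG* to 2.99 for *WIPI1*, and the guide points from −0.47 for *ATP6V0C* to 0.23 for *FLCN*.

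The second comparison asks what targeting *KSR2* by guide did to the same genes. With both guides averaged against NT, 0 of the 36 genes passed the edgeR test, as did 0.0158% of all genes tested. DESeq2 and limma-voom also called 0 of them. At an unadjusted edgeR p under 0.05 there were 3 of the 36, *GABARAPL1*, *UVRAG* and *FLCN*, and 788 of the 18963 genes. The median log2 change of the 36 was −0.03. In 33 of the 36 genes the 95% interval of the log2 change lay within −0.5 to 0.5, and the exceptions were *CTSD*, *ATP6V0B* and the scarce *ATP6V0C*. Guide 1 alone called 0 of the 36 (0.00527% of all genes). At an unadjusted edgeR p under 0.05 it gave 3 of the 36 and 880 of the 18963 genes. Guide 2 alone called 0 (0.0105% of all genes), with 3 and 683 at that unadjusted p. The direct comparison of guide 2 with guide 1 called 0 (0.00527% of all genes), with 2 and 614.

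The levels show how closely the guide and NT libraries lay. *NEU1* had 28.2, 29 and 29.8 CPM with guide 2 and 25.7, 27.3 and 26.5 CPM with guide 1, against 29.7 and 23.8 CPM in NT. The guide libraries fell between the NT libraries or just above them, and the log2 change of both guides has its interval within −0.5 to 0.5. *NPC1* had 65.5, 57.7 and 55.8 CPM with guide 2 and 64.8, 61.3 and 61.9 CPM with guide 1, against 62.5 and 61.1 CPM in NT. *GABARAPL1* had 22.3, 23.3 and 23.3 CPM with guide 2 and 25, 25.6 and 25.6 CPM with guide 1, against 29 and 26.9 CPM in NT. All guide libraries of *GABARAPL1* lay below both NT libraries, with a log2 change of −0.21 (95% interval −0.37 to −0.05) that did not pass after adjustment (edgeR adjusted p = 0.989).

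The inhibitor's effect was tested directly against the guides' effect by a contrast of KSRi minus DMSO with both guides minus NT. In 17 of the 36 genes the effect of KSRi was the higher one, in 0 the lower one, against 16.6% and 12.1% of all genes tested (edgeR adjusted p under 0.05). The median difference in log2 change was 0.40, against 0.03 for all genes tested. It was 2.94 ± 0.17 (SE) for *WIPI1*, 2.67 ± 0.24 for *SMPD1*, 1.83 ± 0.16 for *NEU1*, 1.74 ± 0.18 for *NPC2* and 1.19 ± 0.13 for *NPC1*. The difference was 0.67 for *TFE3* and 0.30 for *RRAGD*, which both passed, and 0.14 for *TFEB* (95% interval −0.28 to 0.56), which did not. *HEXA* and *FLCN* rose with KSRi, but their difference from the guides' effect did not pass, at 0.11 (95% interval −0.13 to 0.35) and 0.04 (95% interval −0.24 to 0.31).

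The control groups of the arms differed from each other. By their labels, NT cells carried a non-targeting guide and DMSO cells were given DMSO. What else differed between them was not given in the sources used here, and such differences cannot be told apart. In NT cells 9 of the 36 genes were higher than in DMSO cells, 18 were lower and 9 did not pass, against 34.6% higher and 31.2% lower among all genes tested (edgeR adjusted p under 0.05). The median log2 difference was −0.26, against 0.04 for all genes tested. The summed T lineage markers were at 2876 to 2987 CPM in NT and 2316 to 2429 CPM in DMSO. The sum of 4 B cell markers, of which *CD79A* alone was above 1 CPM, was 46.9 to 68.0 CPM in NT and 21.8 to 23.0 CPM in DMSO. The part of these markers in the differences was not tested. This comparison depended on the scaling. With upper-quartile factors 12 of the 36 genes were higher and 8 lower, against 43.7% and 22.1% of all genes tested. The share of lower genes among the 36 was then near that of all genes. Those factors moved the median of all genes by 0.22 and gave a share of 66.4% higher among all calls in place of 52.6%. With only genes of at least 5 CPM in 3 libraries, which moved that median by 0.14, 9 of 35 genes were higher and 10 lower. Of all genes kept by that filter 36.4% were higher and 35.5% lower, so the share of lower genes among the 35 was below that of all genes. The 8 genes that were lower under all of these settings were *LAMP1*, *MCOLN1*, *CTSA*, *GLA*, *ATP6V0D1*, *ATP6V0B*, *ATP6V1A* and *ATP6V1H*.

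Of the 7 pump genes 5 were lower in NT cells than in DMSO cells (71.4%, against 31.2% of all genes tested) and 0 were higher. With upper-quartile factors 4 of these 5 were lower, against 22.1% of all genes tested, and the value of *ATP6V0A1* changed sign. *ATP6V0D1*, which couples the membrane and cytosolic sectors, had 26.9 and 25.7 CPM in NT, against 66.2, 62.3 and 58.2 CPM in DMSO, a 2.36-fold lower level (edgeR adjusted p = 2.17e-08). *ATP6V1A* had 46.7 and 49.2 CPM in NT, against 95, 93.4 and 93.2 CPM in DMSO, and was 1.96-fold lower. *ATP6V0B* was 2.40-fold lower. Among the other roles, *CTSA* had 21.4 and 21.0 CPM in NT, against 53.2, 50.4 and 55.5 CPM in DMSO, and was 2.51-fold lower. *LAMP1* had 76.0 and 67.2 CPM in NT, below all 3 DMSO libraries, and was 1.90-fold lower.

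Other genes were higher in NT cells, and *WIPI1* and *SMPD1* had the largest differences. *WIPI1* had 22.3 and 20.1 CPM in NT, 12.4-fold above DMSO (edgeR adjusted p = 2.28e-12). Genes on the opposite strand that share exonic bases with it were also higher in NT, *ARSG* at 34.8 CPM in NT and 9.0 CPM in DMSO (log2 difference 1.95) and AC007780.1 at 5.61 CPM in NT and 0.897 CPM in DMSO (log2 difference 2.59). *SMPD1* had 8.87 and 9.76 CPM in NT, 6.25-fold above DMSO (edgeR adjusted p = 4.66e-09). Both genes were lower in each of the 3 DMSO libraries than in every library of the other 4 groups. The KSRi and NT comparisons share the DMSO libraries, so their values for a gene are not independent. Set side by side, *WIPI1* had log2 differences from DMSO of 2.99 with KSRi and 3.63 in NT, and *SMPD1* of 2.61 with KSRi and 2.64 in NT. *NEU1* had 1.89 with KSRi and −0.39 in NT, and *NPC1* had 1.17 with KSRi and −0.34 in NT, so both stood above NT as well as DMSO with KSRi. With upper-quartile factors the NT values were −0.17 for *NEU1* and −0.13 for *NPC1*, and neither passed. *NPC2* had 1.59 with KSRi and 0.57 in NT. *GABARAPL1* had 0.51 with KSRi and 0.49 in NT, *MAP1LC3B* 0.45 and 0.36, and *TFE3* 0.47 and 0.30. The log2 difference of KSRi from NT itself was 0.02, 0.09 and 0.17 for these genes in turn, and −0.64 for *WIPI1*. So no autophagy gene that rose with KSRi stood clearly above NT. The same difference was 2.27 for *NEU1*, 1.51 for *NPC1* and 1.01 for *NPC2*. Of the 19 genes that rose with KSRi, 7 were also higher in NT than in DMSO, 6 were lower and 6 did not pass. Of all genes tested 34.6% were higher and 31.2% lower in NT, so the split of the 19 was near that of all genes.

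**Figure D4:**
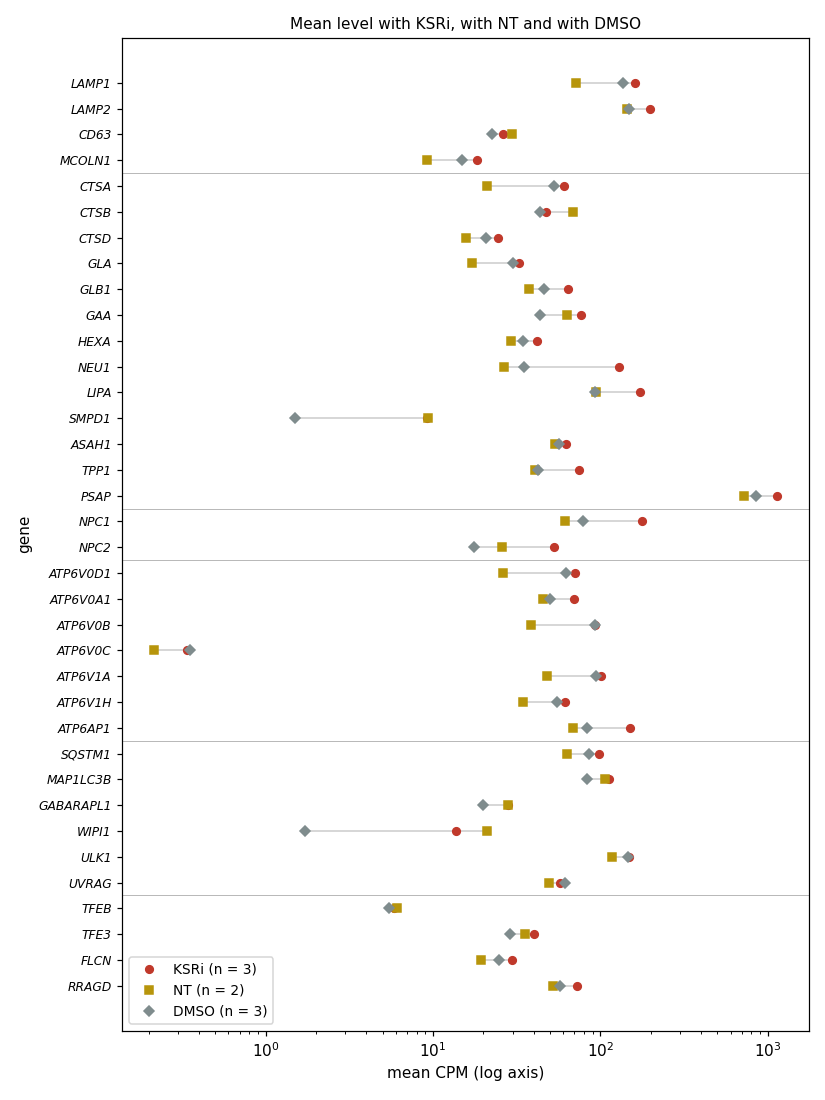
Mean CPM (log axis) of each tested gene with KSRi (circles, n = 3), in NT (squares, n = 2) and with DMSO (diamonds, n = 3), ordered by role, with a grey line joining the means. *WIPI1* and *SMPD1* are lowest with DMSO, *NEU1* is highest with KSRi, and the means of the 7 pump genes are lower in NT than with DMSO, of which *ATP6V0A1* changes sign with upper-quartile factors.

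Set by their promoters, the genes with and without the palindrome had these values, given as a description of a split made after the values were seen. Of the 9 genes with CACGTG in the window, *NEU1* and *GAA* rose with KSRi and 7 did not pass the test, with a median log2 change of 0.22. Of the 18 tested genes with a window that lacks it, 13 rose, with a median of 0.48. Of all genes tested 22% rose, which is near the share among the 9. Without KSRi replicate 1, 8 of the 9 and 14 of the 18 rose, against 25.9% of all genes. In NT cells, against DMSO, 7 of the 9 were lower and 2 higher, with a median of −0.70. Of the 18, 7 were lower and 6 higher, with a median of −0.10. Of all genes tested 31.2% were lower and 34.6% higher. With upper-quartile factors 5 of the 9 were lower and 2 higher, with a median of −0.49. Of the 18, 1 was lower and 8 higher, with a median of 0.12, against 22.1% lower and 43.7% higher of all genes. With the 5 CPM filter the counts were 5 lower and 2 higher of 9, and 2 lower and 6 higher of 17. Of the genes kept by that filter 35.5% were lower and 36.4% higher. Of the 6 genes whose sequences are printed above, *LAMP1*, *MCOLN1*, *ATP6V0B* and *ATP6V0D1* were among the lower ones under all of these settings. *GAA* was higher under all of them, and *NEU1* did not pass with upper-quartile factors or with the 5 CPM filter. Of the genes with the palindrome that are not printed, *CTSA* was lower and *CD63* higher under all of these settings. *CTSD* did not pass with upper-quartile factors or with the 5 CPM filter.

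**Figure D5:**
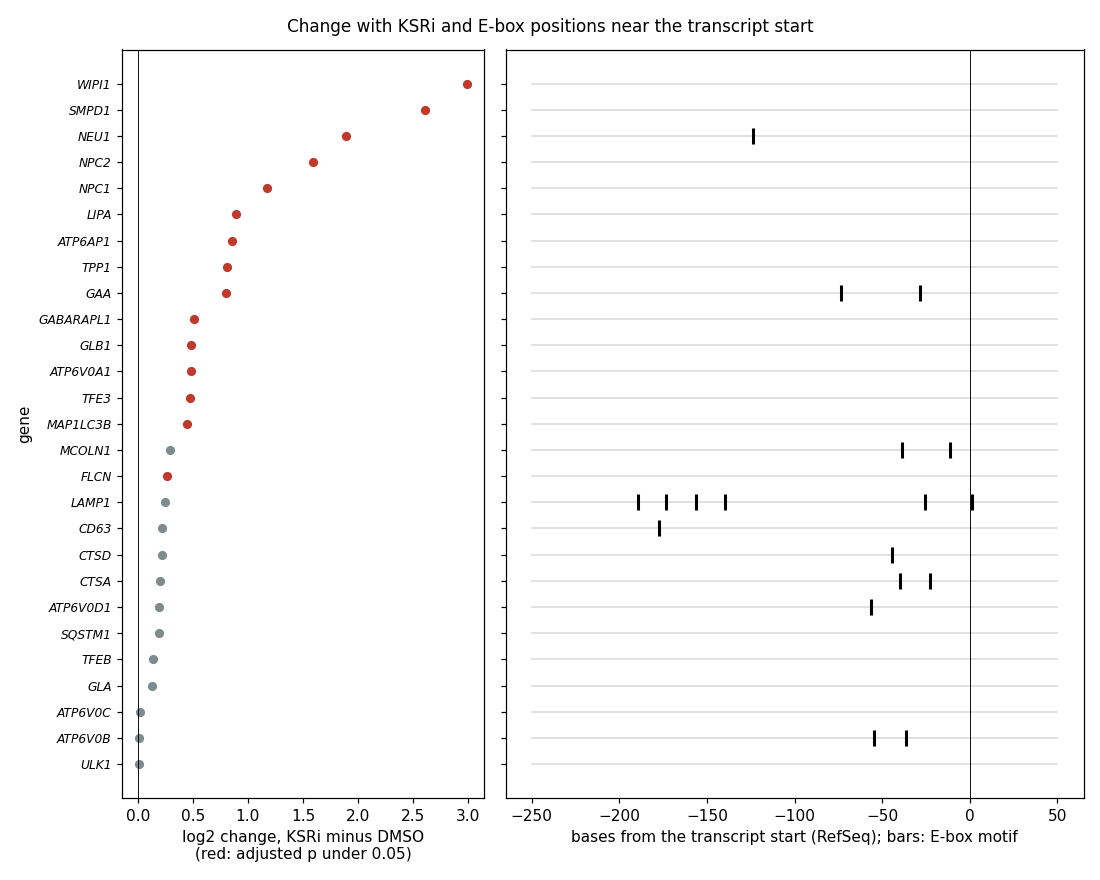
Left, log2 change with KSRi against DMSO of the 27 tested genes with a promoter window, in order of that change (red, edgeR adjusted p under 0.05). Right, positions of CACGTG (1 bar per copy) along an axis of bases from the transcript start. *LAMP1* carries 6 copies, more than any other gene shown.

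Beyond the 38 genes, 165 further genes of lysosomes and autophagy were grouped into lists, of which 156 were tested. *MITF* and *TFEC*, which encode the other members of the TFEB family, were scarce and were among those not tested. With KSRi 56 of them rose (35.9%) and 12 fell (7.69%), against 22% and 18.7% of all genes tested, and the median log2 change was 0.13. Without KSRi replicate 1 the counts were 73 and 20. Of all genes 8928 were then called, 4912 of them (25.9% of all genes) as higher and the rest as lower. Among 36 further hydrolases 23 rose (63.9%) and 1 fell (2.78%), with a median of 0.40. *CTSV*, which encodes cathepsin V, averaged 11.3 ± 0.341 CPM with KSRi and 4.75 ± 0.299 CPM with DMSO (SD, n = 3 each), a 2.39-fold rise. *CTSO*, another cysteine protease, averaged 3.59 ± 0.839 CPM with KSRi and 0.889 ± 0.175 CPM with DMSO, a 3.91-fold rise. The acid nuclease gene *DNASE2* rose 1.70-fold. These 3 were among the 4 with the lowest adjusted p of their list.

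Among 19 further membrane and transport genes 6 rose (31.6%) and 2 fell (10.5%), with a median of 0.18. *SCARB2*, the receptor that carries β-glucocerebrosidase to lysosomes, averaged 43.1 ± 4.83 CPM with KSRi and 16.5 ± 0.807 CPM with DMSO (SD, n = 3 each), a 2.61-fold rise. The lipid transporter gene *ABCA2* rose 2.21-fold, the sialic acid exporter gene *SLC17A5* rose 1.46-fold, and *TMEM175*, a cation channel of the lysosome, rose 1.54-fold. Among 11 further pump subunits 3 rose and 3 fell, 27.3% each way, shares near those of all genes tested, with a median of 0.06. *ATP6V1C1* fell by 0.28 on the log2 scale, and *ATP6V1B2* also fell by 0.28, whereas *ATP6V0E2* rose by 0.35 and the scarce *ATP6V1G2* by 0.97. Among 33 further autophagy genes 9 rose (27.3%) and 3 fell (9.09%), with a median of 0.13. The tether gene *EPG5*, the conjugating enzyme gene *ATG10* and the lipid transfer gene *ATG2A* rose by 0.47, 0.51 and 0.52, while *ATG2B*, a paralog of *ATG2A*, fell by 0.52. With both guides against NT 0 of the 156 further genes passed the edgeR test, and in NT against DMSO 43 were higher (27.6%) and 74 lower (47.4%), against 34.6% and 31.2% of all genes tested. With upper-quartile factors these counts were 58 (37.2%) and 47 (30.1%), against 43.7% and 22.1% of all genes tested. The lower genes held 10 of the 11 further pump subunits, and 6 of the 11 with upper-quartile factors.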

How the data were processed

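The authors deposited whole-number read counts per Ensembl gene for 14 libraries. The submitters' processing notes list DESeq2 1.42.1, the aligner STAR 2.7.11b and build GRCh38. The counting tool and its strand setting were not given in the sources used here. Each sample took its group from its title or treatment label. From the counts, the edgeR 4.0.16 quasi-likelihood test was fitted in R 4.3.3 with TMM factors, filterByExpr and 1 mean per group over all 14 libraries, and p-values were adjusted by Benjamini-Hochberg over 18963 genes. CPM use the TMM library sizes. Intervals are 95% and cover the fitted spread between libraries, whose common coefficient of variation was 8.6%.

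Symbols, positions and exonic lengths came from GENCODE 29, and promoter windows from RefSeq tables. Alternatives were other scaling factors and filters, DESeq2 1.42.0, limma-voom (limma 3.58.1), a replicate block, fits on only the groups compared, a threshold of 0.01 and leaving out each library. The fit was tested on simulated data. The members and lists were chosen with earlier results of these data known, so their counts are descriptions. Genes given in full were the 4 with the lowest adjusted p in each direction with KSRi, *TFEB*, *TFE3*, *MCOLN1*, *RRAGD*, *SQSTM1* and *LAMP1*, and any called with a guide. The other per-library values are given by role, and were chosen after the values were seen. Up to 4 genes per further list were named by lowest adjusted p, and 1 of the genes this selects is not reported here.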

Additional observations from a re-analysis of the deposited data

How the results depend on the processing

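Counts of the 36 genes were recomputed under each alternative, and most stayed within 1.5 times the reported ones. For NT against DMSO, 8 genes were lower with upper-quartile factors and 10 with only genes of at least 5 CPM in 3 libraries, against 18 as reported. The first 8 were among the 18. Of all genes tested under each setting 22.1%, 35.5% and 31.2% were lower in turn. *RRAGD* in NT against DMSO had a log2 difference of −0.14 as reported, 0.08 with upper-quartile factors and 0.00 with the 5 CPM filter. The *TFEB* change with KSRi ran from −0.08 without KSRi replicate 2 to 0.25 without KSRi replicate 1. Leaving out 1 library gave 17 to 29 genes higher with KSRi, the highest without KSRi replicate 1. It gave 14 to 23 genes with a higher effect of KSRi than of the guides, and 12 to 18 lower in NT. In the further lists with KSRi it gave 44 to 73 higher and 8 to 20 lower, the 20 without KSRi replicate 1. At an adjusted p under 0.01, 6 further genes were lower. Beside the scaling shifts and the removed libraries, the cause was not tested. Replicate numbers did not pair the samples, with correlations of deviations from −0.066 to 0.092. A replicate block gave 19 genes higher with KSRi, 15 with a higher effect of KSRi than of the guides, and 0 with the guides. The fit on only the groups compared was not run for that contrast, which needs all groups, and the block was not applied to NT against DMSO. With 2 NT libraries, the 95% intervals of the 36 genes for both guides had a median width to either side of 0.20 (log2). These intervals are not adjusted for the number of genes tested. Smaller changes were mostly not detectable, and larger ones could also miss the adjusted threshold, as *GABARAPL1* at −0.21 and *FLCN* at 0.23 did.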

Other observations

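Smaller gene groups around the lysosome were not described above. Of 12 autophagy receptor genes 6 rose with KSRi (50%) and 0 fell, against 22% and 18.7% of all genes tested, and the median log2 change was 0.20. *OPTN*, a receptor for ubiquitinated mitochondria and bacteria, averaged 7.60 ± 1.36 CPM with KSRi and 2.45 ± 0.463 CPM with DMSO (SD, n = 3 each), a 3.12-fold rise (edgeR adjusted p = 2.64e-07). *NBR1*, *CALCOCO2* and *BNIP3L* rose 1.48-fold, 1.36-fold and 1.21-fold. In NT against DMSO 8 of the 12 were higher and 2 lower, against 34.6% and 31.2% of all genes tested. With upper-quartile factors the counts were the same, against 43.7% and 22.1% of all genes tested.

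Of 21 genes that dock or regulate mTORC1 on the lysosome 3 rose with KSRi (14.3%) and 1 fell (4.76%), both shares below those of all genes tested, with a median of 0.05. *SESN2*, a leucine sensor that restrains mTORC1, averaged 57.7 ± 15.7 CPM with KSRi and 17.6 ± 1.16 CPM with DMSO (SD, n = 3 each), a 3.27-fold rise (edgeR adjusted p = 9.99e-08). The Rag GTPase genes *RRAGA* and *RRAGC* each rose by 0.31 on the log2 scale with overlapping libraries, and *LAMTOR3*, a subunit of the Ragulator anchor, fell by 0.29. Of 12 genes that sort hydrolases 3 rose (25%, near the share of all genes tested) and 1 fell (8.33%), with a median of 0.07. *GNPTAB*, which makes the mannose 6-phosphate tag, fell by 0.25, and *IGF2R*, a receptor for that tag, rose by 0.23. Of 12 tether and small GTPase genes of late endosomes the shares were the same, 3 higher and 1 lower, with a median of 0.10. The HOPS tether genes *VPS39*, *VPS11* and *VPS16* rose by 0.41, 0.32 and 0.50, and *VPS41*, of the same complex, fell by 0.21.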
